A study of Rattus norvegicus with 4 samples.

Results

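The miR-15/16 family consists of miRNAs whose 5′ ends begin with nearly the same letters, the stretch with which a miRNA pairs with its target mRNAs. Its 5 guide arms followed here were rno-miR-16-5p, rno-miR-15a-5p, rno-miR-15b-5p, rno-miR-322-5p and rno-miR-503-5p, written below without the rat prefix and taken by their names from the 758 rat miRNAs on the array. miR-16-5p was the only member well above background on both arrays of a group. Both M1_OA arrays measured it well above background and neither M0_sham array did, while miR-15a-5p, miR-322-5p and miR-503-5p were well above background on no array. miR-15b-5p, which is made from the same cluster as miR-16-5p, was well above background on M0_sham replicate 1 alone.

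The family is known for slowing the cell cycle, by repressing cyclins and cyclin-dependent kinases, and for favouring apoptosis, by repressing Bcl2. miR-15b and miR-16 are cut from neighbouring hairpins in an intron of Smc4, which encodes a condensin subunit. miR-15a comes from a further locus, and miR-322, the rodent counterpart of human miR-424, is made with miR-503 from an X-linked cluster. Guide arms are the strands that are mainly loaded into Argonaute, and the other arm of a hairpin is mostly discarded.

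Vesicles shed by cultured macrophages were profiled on 4 single-colour miRNA arrays, 2 per group, all from male wild-type Sprague-Dawley rats. In M1_OA, rats had the medial meniscus destabilised and the anterior cruciate ligament cut in the right knee at 8 weeks of age, and marrow was taken 8 weeks later; CD45+ CD11b+ cells were sorted, kept until day 7 in medium with M-CSF at 20 ng/mL, exposed to 100 ng/mL LPS and 20 ng/mL IFN-γ for 48 hours, and then to 5 mM ATP for 60 minutes. In M0_sham, rats had a sham operation at the same age, and the same sorted cells were kept in the same M-CSF to day 7 and used as unpolarised M0 macrophages. The labels pair surgery with polarisation, so surgery, LPS with IFN-γ, ATP and the hours in culture that exposure adds cannot be told apart. Nothing in the labels says that replicates came from separate rats or cultures. The p-values measure only how these arrays spread, possibly for technical reasons. In vesicle RNA, fewer vesicles of a kind and less miRNA per vesicle cannot be told apart.

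The mature sequences show what the members share and where they part. They are given from RefSeq (GRCr8) 5′ to 3′, with bases 2 to 8, the seed, in capitals; 4 of the 5 members were matched by name, and miR-15a-5p is named only. The first pair lies on chromosome 2 and the second on the X chromosome.
miR-16-5p: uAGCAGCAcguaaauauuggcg
miR-15b-5p: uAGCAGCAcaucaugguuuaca
miR-322-5p: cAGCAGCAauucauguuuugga
miR-503-5p: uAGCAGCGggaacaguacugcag
The seed was the same in 3 of these 4 sequences. miR-503-5p shared bases 2 to 7 with the other three and had another letter at the last seed base, so it belongs to the family by its first letters and not by the whole seed. Over their whole length the members differ more: set letter by letter against miR-16-5p without gaps, miR-15b-5p differed at 8 of 22 bases, and miR-322-5p and miR-503-5p at 10 each.

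On the GRCr8 assembly, miR-16-5p lies at chr2:155555343-155555364 and miR-15b-5p at chr2:155555197-155555218, both on the plus strand, with 124 bases between them and Smc4 around both. The annotation used holds 1 locus for miR-16-5p and no record of Mir15a, so what lies beside miR-15a was not checked. miR-322-5p lies at chrX:137726198-137726219 and miR-503-5p at chrX:137725899-137725921, both on the minus strand, with 276 bases between them, inside the gene record LOC102550366. Mir351 is their neighbour. Over the array, 5 miRNAs carried the miR-16-5p seed and 6 carried its bases 2 to 7, among the 685 of 758 with a sequence in the table. The 2 that are not members, miR-195-5p and miR-497-5p, come from another cluster, on chromosome 10.
miR-195-5p: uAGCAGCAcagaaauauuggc
miR-497-5p: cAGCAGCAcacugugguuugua
miR-195-5p is the closest of these to miR-16-5p, differing at 2 of 21 bases, and is shown because its probes resemble those of miR-16-5p.

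Signals are given as the processed intensity of the array scanner software, background already subtracted, in arbitrary units. The spots of a probe were averaged and the probes of a miRNA summed, so a value near or below 0 is no measurable signal. A miRNA was called well above background where that flag was set for a share above 0.5 of the spots of any of its probes. The lowest signal so called, the array's detection limit, was 16.9 and 14.6 on M1_OA replicates 1 and 2, and 7.78 and 26.7 on M0_sham replicates 1 and 2. The M1_OA arrays were the brighter ones, with 42 and 45 miRNAs well above background and summed signals of 24578 and 22841, against 23 and 13 miRNAs and summed signals of 3994 and 6925 on the M0_sham arrays. The labelling spike-in ran the other way, at 616 and 535 on the M1_OA arrays and 759 and 908 on the M0_sham arrays. Most of the summed signal on the M1_OA arrays came from miR-1224, whose longer probe alone averaged 16004 and 15397 there. All 4 arrays were on 1 slide, scanned in 2 sessions that held 1 group each, so the group and its scan session cannot be told apart. The part of these differences in the results was not tested.

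Among markers of cell types, miR-223-3p, a myeloid miRNA, passed the call on both M1_OA arrays (59.7 and 43.7) and, of the M0_sham arrays (23.1 and 16.6), on replicate 1. The other 2 myeloid markers, miR-142-3p and miR-142-5p, were well above background on no array, although miR-142 is a defining miRNA of blood cells. All 4 erythroid, 3 lymphocyte, 2 platelet and endothelial, and 3 liver and serum markers were likewise below that call on every array. Summed over its list, the myeloid signal was 50.6 and 31.1 on M1_OA arrays and 15.7 and 4.55 on M0_sham arrays. The erythroid sum was -18.9 and -21.5 on M1_OA arrays and -13.5 and -25.3 on M0_sham arrays. miR-16-5p is also abundant in red blood cells, whose defining miR-451-5p read -1.39 and -4.29 on M1_OA arrays and -0.794 and -1.65 on M0_sham arrays.

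miR-16-5p had signals of 45.7 and 32.7 in M1_OA vesicles, against -2.82 and -4.96 in M0_sham vesicles. Both M1_OA signals were above the detection limit of their own array and above every M0_sham detection limit, and the groups did not overlap. Of the 758 miRNAs, 40 (5.28%) passed the call on both M1_OA arrays, miR-16-5p among them, and 24 (3.17%) did so while failing it on both M0_sham arrays. No other member was on either list. On both M0_sham arrays together 12 miRNAs, 1.58%, were well above background, and no member was among them (0 of 5).

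**Figure D1:**
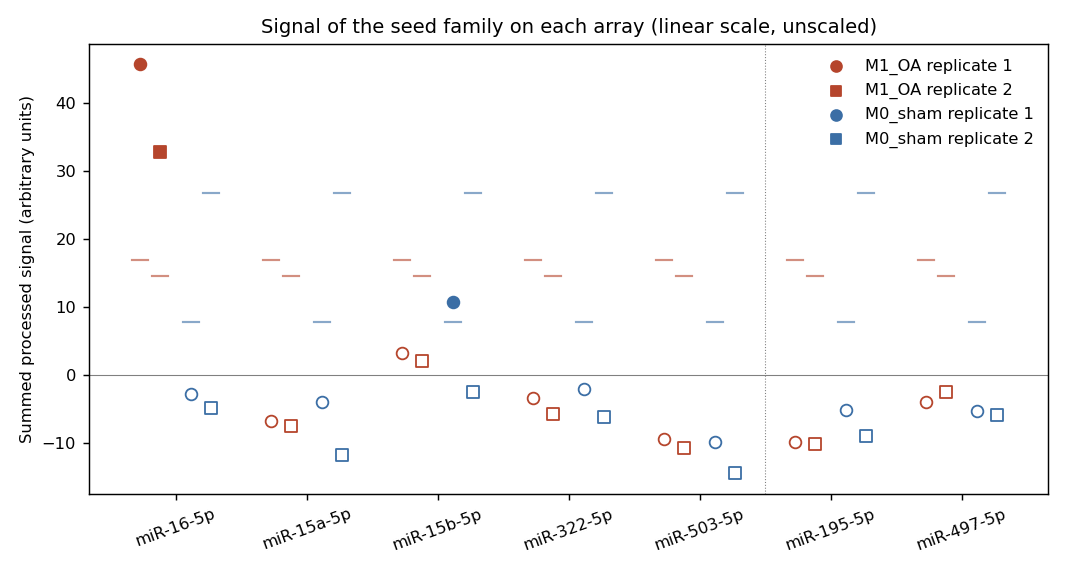
Summed processed signal (linear scale, arbitrary units, no scaling between arrays) of the 5 members and, right of the dotted line, the 2 other arms with the same seed, on M1_OA arrays (red) and M0_sham arrays (blue); filled points were well above background and short bars mark each array's detection limit. miR-16-5p is filled at 45.7 and 32.7 on the M1_OA arrays, and the other filled point is miR-15b-5p on M0_sham replicate 1, at 10.8.

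miR-15b-5p, the cluster partner of miR-16-5p, had signals of 3.22 and 1.97 in M1_OA vesicles, against 10.8 and -2.53 in M0_sham vesicles. Both M1_OA values lay between the M0_sham values, so the groups overlapped. It was therefore below the detection limit on the arrays where miR-16-5p was measured, and above it on 1 array where miR-16-5p was not. With the laxer flag of the software, a spot positive and significant against the background, miR-15b-5p was also detected on both M1_OA arrays, as well as on M0_sham replicate 1.

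miR-15a-5p had signals of -6.83 and -7.59 in M1_OA vesicles, against -3.96 and -11.8 in M0_sham vesicles. miR-322-5p had -3.48 and -5.75 in M1_OA vesicles, against -2.03 and -6.16 in M0_sham vesicles. miR-503-5p had -9.52 and -10.8 in M1_OA vesicles, against -9.84 and -14.5 in M0_sham vesicles. All 3 were at or below 0 on every array and their groups overlapped, so no level and no difference of theirs was detectable at these signals. In all, 1 of the 5 members had both M1_OA signals above both M0_sham signals, as did 159 of 758 miRNAs (21.0%), and none had the reverse (0 of 5, against 23.2% of the 758). After scaling, which multiplies values below 0 too, that count was 4 of 5 members, against 73.7% of the 758, and nothing is read from it.

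The spots show which probe carried the signal. Each member was read by a pair of nested probes with 8 spots each, the longer probe holding 1 more base. That base extends the pairing towards the 5′ end of the miRNA, which for miR-15a-5p was not checked, as its mature sequence was not matched. The probes of miR-16-5p and miR-15b-5p are shown as the scanner files give them, with the added base of the longer probe in capitals.
miR-16-5p shorter probe: cgccaatatttacgtgct
miR-16-5p longer probe: cgccaatatttacgtgctG
miR-15b-5p shorter probe: tgtaaaccatgatgtgctg
miR-15b-5p longer probe: tgtaaaccatgatgtgctgC
The longer probe of miR-16-5p pairs with bases 4 to 22 of the miRNA and the shorter one with bases 5 to 22. The longer probe of miR-15b-5p pairs with bases 3 to 22 and the shorter with bases 4 to 22.

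The longer miR-16-5p probe averaged 43.4 ± 3.18 and 32.3 ± 2.18 over its unmarked spots on M1_OA arrays, against -0.0752 ± 2.03 and -0.637 ± 2.52 on M0_sham arrays (SD over spots of 1 array, which are technical). All 8 spots were well above background on each M1_OA array and 0 of 8 on each M0_sham array. The shorter miR-16-5p probe averaged 2.25 and 0.418 on M1_OA arrays, against -2.74 and -4.32 on M0_sham arrays, and 0 of its 8 spots carried the flag on any of the 4 arrays. The spots of miR-16-5p well above background in M1_OA vesicles were thus all on 1 probe of the pair, whose partner lacks a single paired base. A brighter longer probe was common on these arrays: among 40 miRNAs with nested probes that passed the call on both M1_OA arrays, it was the brighter one on both arrays in 32. The median ratio of longer to shorter probe over the 40 was 1.72 and 1.64 on the M1_OA arrays. That median ranks ratios below 0 as the smallest, so it understates the gap. Such ratios came from miR-29a-3p, miR-30c-2-3p, miR-494-3p and miR-92a-3p, whose shorter probes averaged below 0 on both M1_OA arrays. On M1_OA replicate 1, for example, miR-29a-3p averaged -1.23 on its shorter and 26.9 on its longer probe. A shorter probe without measurable signal was thus not particular to miR-16-5p. The ratios of miR-16-5p itself were 19.3 and 77.4, the largest of the ratios above 0 on either M1_OA array. They divide by shorter-probe means near 0, so their size is unsteady.

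The longer miR-15b-5p probe averaged 5.80 and 4.94 on M1_OA arrays, against 9.64 and -0.0369 on M0_sham arrays. None of its 8 spots (0) was well above background on either M1_OA array, and 7 and 0 of 8 were on the M0_sham arrays. The positive and significant flag was set in 8 and 6 of 8 spots on the M1_OA arrays and in 8 and 0 of 8 on the M0_sham arrays. The 2 M0_sham replicates thus differed from each other more than either differed from the M1_OA arrays. The shorter miR-15b-5p probe stayed near 0, at -2.59 and -2.97 on M1_OA arrays and 1.13 and -2.49 on M0_sham arrays.

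Single spots stood out among the other members and were marked as outliers by the scanner software. The longer miR-15a-5p probe had 1 such spot at 20.2 on M1_OA replicate 1, while its unmarked spots averaged -4.52 there. Counting that spot alone would add miR-15a-5p to the detected members on that array and on no other.

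**Figure D2:**
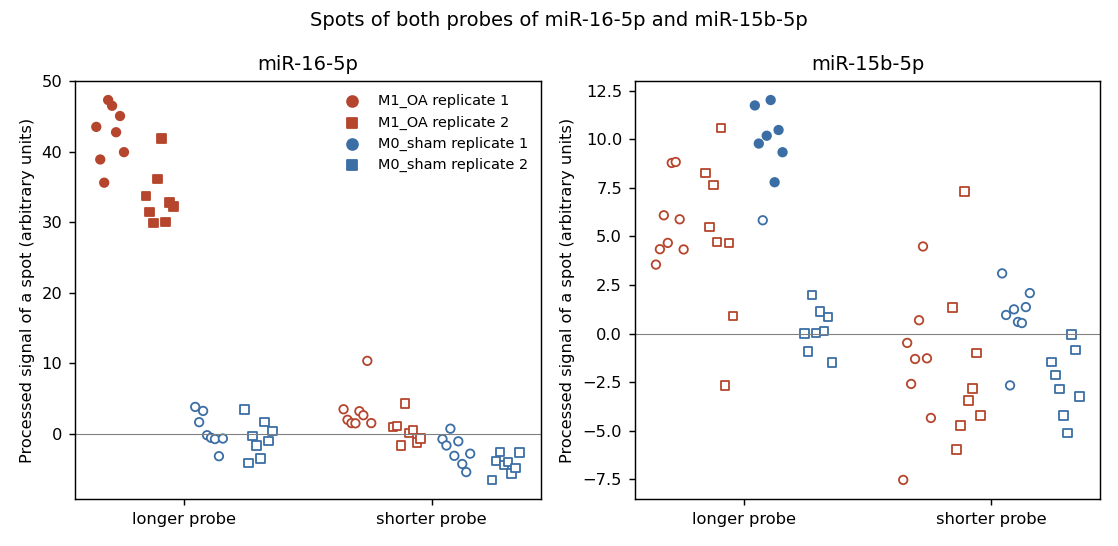
Processed signal of every spot (arbitrary units, each panel with its own linear axis) of the longer and shorter probe of miR-16-5p and miR-15b-5p, M1_OA arrays in red left of M0_sham arrays in blue; filled spots were well above background. The filled spots are all those of the longer miR-16-5p probe on M1_OA arrays and 7 of 8 spots of the longer miR-15b-5p probe on M0_sham replicate 1.

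miR-195-5p, whose sequence is nearest to that of miR-16-5p, read -9.87 and -10.2 in M1_OA vesicles, against -5.14 and -9.04 in M0_sham vesicles. miR-497-5p read -3.97 and -2.47 in M1_OA vesicles, against -5.31 and -5.87 in M0_sham vesicles. Neither was well above background on any array, so of the 6 miRNAs found with these first letters, miR-16-5p was the one well above background in M1_OA vesicles. The wider family, miR-103-3p and miR-107-3p, holds the same 6 letters shifted to bases 1 to 6 and was well above background on no array either. Its signals reached 3.48 at most, in miR-107-3p on M1_OA replicate 1.

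The other arms of the members' hairpins and the neighbours of miR-322 and miR-503 were below the call on every array. miR-16-3p, the other arm of the miR-16 hairpin, read -1.68 and -2.80 in M1_OA vesicles, against -0.620 and -2.58 in M0_sham vesicles. On each M1_OA array 1 of its spots was well above background, at 28.8 and 36.3, and both were among the spots marked as outliers. The 5 other arms ranged from -14.6 to 0.641, and the 6 neighbours on X (both arms of miR-351, miR-542 and miR-450a) from -14.1 to -1.88. Nothing of the X-linked cluster, guide arms or neighbours, was measurable in vesicles of either group.

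To compare the groups, arrays were brought to a common 75th percentile over the 11 miRNAs that all 4 of them measured well above background, a floor of 7.90 replaced lower values, and values were turned into log2. limma was fitted over the 41 miRNAs that passed the call in both replicates of M1_OA, of M0_sham or of both. Of the 5 members, miR-16-5p alone passed that filter, and it passed through its M1_OA arrays with neither M0_sham array above the call, as did 24 of the 41 with itself counted; its place among the tested therefore already required signal in M1_OA. Its log2 levels were 4.42 and 4.49 in M1_OA vesicles, against the floor of 2.98 on both M0_sham arrays.

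The floored miR-16-5p difference was 1.47 ± 0.12 on the log2 scale (SE, n = 2 each; limma, Benjamini-Hochberg adjusted p = 0.00273), with the direction turned under normexp background correction (-0.67, adjusted p = 0.0153) and a value of 0 with the floor at the highest detection limit. That highest limit, 5.35 in log2, lies above the miR-16-5p levels of both M1_OA arrays. It therefore replaced all 4 values, so the 0 was fixed in advance and is no test result. In the difference of 1.47, both M0_sham values are the same substituted floor, with no spread between them. The size of this difference, its SE and its p are therefore set in part by the floor and are not a measured fold. Across the array 22 of the 41 tested were higher in M1_OA (53.7%) and 4 were lower (9.76%), so a call of higher was the common outcome. The median floored difference of the 41 was 0.62, with both M0_sham values at the floor in 16 of them. An exact permutation test over 2 against 2 arrays cannot give a p below 0.333.

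How much of that difference is measured depends on the scaling, because M0_sham gave no measured level and only detection limits to set against. Scaling multiplied the M1_OA arrays by 0.468 and 0.687, and the M0_sham arrays by 2.04 and 1.52. The detection limits then became 2.98 and 3.32 on the M1_OA arrays, against 3.99 and 5.35 on the M0_sham arrays, in log2. The miR-16-5p levels in M1_OA vesicles lay above the limit of M0_sham replicate 1 and below that of M0_sham replicate 2. On this scale the level in M1_OA vesicles averaged 4.45 and the M0_sham limits 4.67, so no lower bound of the fold can be given. Without scaling, the M1_OA mean of 5.27 stood against 3.85 for the M0_sham limits, so miR-16-5p lay 2.68-fold above those limits in unscaled signal. The M1_OA arrays were the brighter ones, and a miRNA not called can exceed a limit, so this is no assured fold between vesicles. The unscaled limma fit gave a floored log2 difference of 2.31 (Benjamini-Hochberg adjusted p = 9.60e-04), but with the floor at the highest detection limit the unscaled difference was 0.53 and was not called (adjusted p = 0.183).

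The shift of all tested miRNAs moved with the scaling as well, and the differences compared here are floored ones. Without scaling their median difference was 1.96, and miR-16-5p, at 2.31, stood 0.36 above it. With the labelling spike-ins as the scale the median was 2.49, and miR-16-5p, at 2.72, stood 0.23 above it. With quantile normalization the median was 0.54, and miR-16-5p, at 1.48, stood 0.93 above it. Under normexp the median was -0.79, and miR-16-5p, at -0.67, stood 0.12 above it although its own sign was turned. Leaving out M0_sham replicate 2, the array with the highest limit, gave miR-16-5p a difference of 1.35 with an adjusted p of 0.0880 by limma, which misses the threshold of 0.05.

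**Figure D3:**
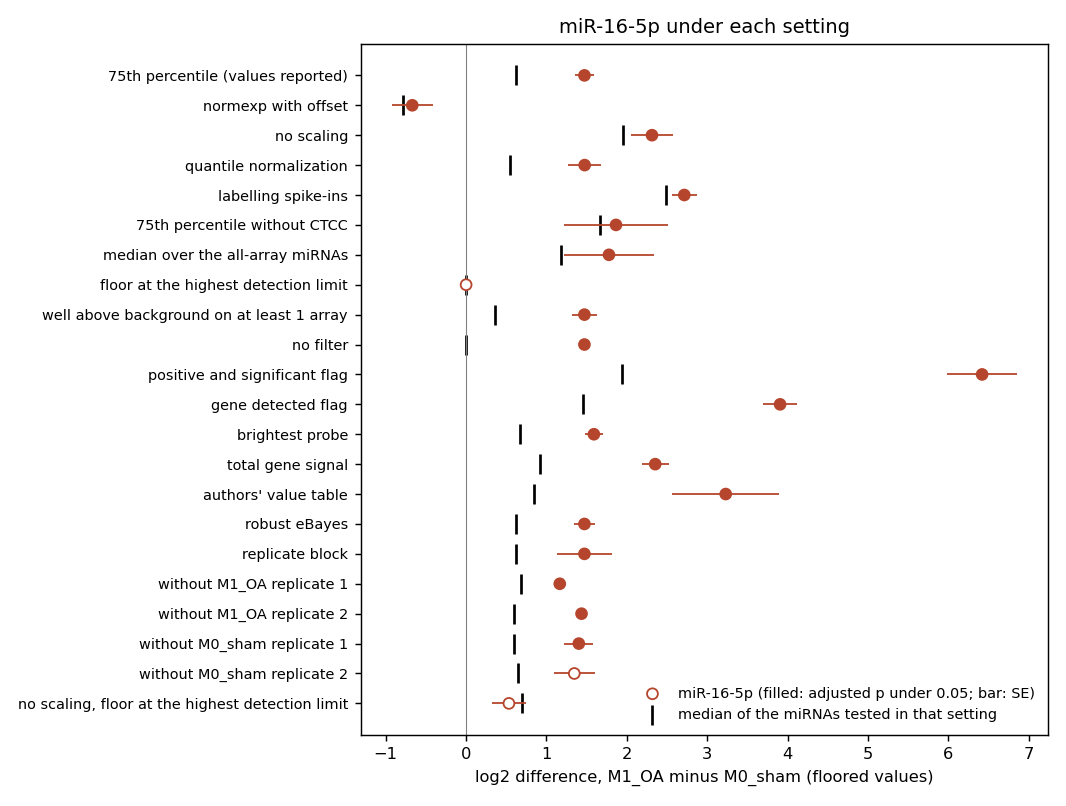
log2 difference of miR-16-5p, M1_OA minus M0_sham (points, bars are SE, filled where the limma adjusted p is under 0.05), and median difference of the miRNAs tested (black ticks) under each setting. The points lie right of 0 except under normexp (-0.67) and with the floor at the highest detection limit (0, all 4 values replaced by the floor). They lie left of their median in 1 setting, no scaling with the floor at the highest detection limit.

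miR-15b-5p was not among the 41. Its floored log2 difference was -0.74, which rests on M0_sham replicate 1 alone, since the other 3 arrays were at the floor. When miRNAs well above background on at least 1 array were let in (55 tested), limma gave it an SE of 0.58 and an adjusted p of 0.388, so a difference of miR-15b-5p between the groups was not shown. The other 3 members were at the floor on all 4 arrays and have no difference to give.

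The authors' deposited table of log2 values, whose floor is -3.32, gives a further reading of the members. It lists miR-16-5p at 0.747 and 0.656 for M1_OA, and at -3.32 and -1.74 for M0_sham. For miR-15b-5p the authors' deposited table has -3.32 and -3.32 for M1_OA, and 0.817 and 0.438 for M0_sham, the opposite pattern. The value of 0.438 belongs to M0_sham replicate 2, where the longer miR-15b-5p probe averaged -0.0369 and the total gene signal in the scanner file was at its minimum of 0.1, so this table and the scanner file part ways on that array. miR-15a-5p, miR-322-5p, miR-503-5p, miR-195-5p and miR-497-5p are at the floor in all 4 columns of the authors' deposited table. The normalization behind that table is not given in the sources used here.

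The tested miRNAs whose pattern over the 4 arrays was most like that of miR-16-5p were taken by Euclidean distance between log2 levels, after each miRNA's own mean was removed. They were miR-188-5p at a distance of 0.26, let-7i-5p at 0.40, miR-139-3p at 0.40, miR-6216 at 0.47 and miR-211-3p at 0.51. let-7i-5p, a let-7 family guide arm, had signals of 47.2 and 45.4 in M1_OA vesicles, against -1.96 and -4.98 in M0_sham vesicles. miR-188-5p had 101 and 84.0 in M1_OA vesicles, against 8.12 and 10.5 in M0_sham vesicles, below the call on both M0_sham arrays. Such likeness is partly set by the floor.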

How the data were processed

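Each array's deposited scanner output gives, for every spot, an intensity with its background subtracted and spatially detrended and flags of 0 or 1, per the file headers. The software was Agilent Feature Extraction 10.7.1.1, as named in the submitters' processing notes. The log2 values of the deposited series table were made by the authors in a way the sources used here do not give. The labels' labelling text describes cRNA amplification from 0.2 µg RNA.

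From 12128 spots (1806 probes, 758 miRNAs), control spots and marked outliers were left out of averages, and 0 spots were saturated. A share of spots above 0.5 set the call of well above background, and 703 miRNAs were called on no array. limma 3.58.1 (lmFit, default eBayes, two-sided, Benjamini-Hochberg over the 41 tested, threshold 0.05) ran in R 4.3.3, and plots in matplotlib 3.10.9 under Python 3.11.15. The fit was tested on simulated data, which adds no support to the results given here. A lower bound of fold sets the M1_OA mean log2 level against the M0_sham detection limits. For normexp, raw mean and local background intensity of the deposited files were used with an offset of 50. The alternatives covered background correction, scaling, floor, filter, flag, probe summary, the authors' table, a replicate block and each array left out. The number of arrays, 4, limits the precision.

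Named miRNAs were all members, arms sharing their seed or hairpins, X neighbours, cell type markers, and the 5 nearest in pattern. The members and lists were chosen with earlier results of these data known. Replicate numbers came from the labels. Same-numbered arrays deviated together with r = 0.31 across tested miRNAs. With 2 arrays per group this value is the same for either pair by construction, so it is a single observation and does not establish pairing.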

Additional observations from a re-analysis of the deposited data

How the results depend on the processing

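The miR-16-5p difference stayed positive and past the threshold under most settings, and its alternatives are named here where they differed. That number of settings adds no support. miR-16-5p was let into the fit by its M1_OA arrays alone, and its M0_sham values were largely set by a floor. The miR-16-5p difference was turned under normexp (-0.67), as were miR-188-5p (-0.43), let-7i-5p (-0.60), miR-139-3p (-0.84) and miR-211-3p (-0.23). There the offset of 50 is multiplied by scale factors computed anew from the normexp values, and their part in the turned signs was not tested. The miR-16-5p difference was 0 with the floor at the highest detection limit, which replaced its values on all 4 arrays, so that 0 was fixed in advance. It was 0.53 (limma adjusted p = 0.183) when the floor at the highest limit was used without scaling, a setting chosen after seeing the data. Leaving out each array gave 1.17 to 1.44, with the adjusted p of 0.0880 reached without M0_sham replicate 2. With the replicate block the difference was 1.47 with an SE of 0.34 and a limma adjusted p of 2.14e-04. That SE was the same for miR-16-5p and the 5 miRNAs nearest in pattern, so it was pooled over miRNAs and is not the spread of miR-16-5p. The SE was shared in the same way under normexp (0.25) and with the median as the scale (0.56). Pairing of the replicates is not established, so the p of the block fit adds no support. The block moved the calls lower to 7 and made the calls higher 19.

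The lower bound of fold was 0.53 under normexp, 0.81 with quantile normalization, 0.94 with the brightest probe, 2.68 without scaling with either floor, 3.88 with labelling spike-ins, 2.04 without miRNAs whose probes hold CTCC, 1.31 with the median as the scale, 27.7 with the positive and significant flag, 2.70 with the gene detected flag and 2.52 with total gene signal; leaving out each array gave 0.622 to 1.65. Bounds under 1 give no fold, and those above 1 hold only as far as the detection limits do. Calls higher numbered 4 under normexp, 34 with spike-ins, 2 with the highest limit as floor, 11 without a filter, 38 with the positive and significant flag, and 13 to 21 with each array left out, the fewest without M0_sham replicate 2. Calls lower numbered 25 under normexp, 0 without scaling with either floor, with spike-ins, without CTCC and with the highest limit as floor, 2 with the median scale and with total gene signal, 8 with any array, 15 with the positive and significant flag, 7 with the gene detected flag, and 0 to 9 with each array left out.

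Members well above background on both M1_OA arrays numbered 2 with the positive and significant flag, which adds miR-15b-5p, and 1 with either M1_OA array left out. On M0_sham they numbered 0 to 1 with each array left out, the 1 being miR-15b-5p without replicate 2. The percentile over all 758 miRNAs was not run, as it was not positive on every array. Where an array was left out, the lone array was assumed to vary like the others, and zero variances at the floor make those p-values less reliable. Signals under the detection limits of 14.6 to 16.9 on M1_OA arrays and 7.78 to 26.7 on M0_sham arrays were not called and are not taken as detected. These limits are the lowest called signals and do not measure noise. The SD of the negative control spots was 9.87 and 2.98 on M1_OA replicates 1 and 2, and 1.85 and 1.92 on M0_sham replicates 1 and 2.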
